A study of Homo sapiens with 26 samples.

Results

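HRAS, NRAS, ARAF, BRAF, MAP2K1, MAP2K2 and MAPK3 encode RAS, RAF, MEK and ERK proteins, and their transcript levels were measured in 26 single cell-derived cell lines (SCDCLs) of pancreatic ductal adenocarcinoma. The 7 genes were chosen by name and matched by Ensembl identifier to 7 of the 41078 genes of the expression table. The libraries were divided by the level of SMAD4, a transducer of TGF-beta signals, into 12 with a SMAD4 level under 1 TPM (SMAD4-negative) and 14 with at least 1 TPM (SMAD4-positive). TPM counts the transcripts of a gene as a share of all transcripts of a library, corrected for transcript length, on a scale that is the same in all libraries.

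Each SCDCL was 1 clone grown from 1 cell by limiting dilution, and 1 RNA library was made from each clone, so clones are the replicates and no clone was measured again. By label, 12 libraries came from BxPC3, described as a classical-like line, and 14 from Panc1, described as a basal-like line. All clones shared a high-glucose medium with serum. Gemcitabine stands as a treatment in the label of each library, while the methods describe the drug only in separate viability assays and give RNA collection from growing flasks. The labels give no drug response of a clone, and no such groups were compared.

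The SMAD4 level and the label did not divide the libraries alike. BxPC3 is known for a deletion of SMAD4 and Panc1 for an intact gene, but the SMAD4-negative set held 5 libraries labelled BxPC3 and 7 labelled Panc1, and the SMAD4-positive set held 7 of each label. SMAD4 was at most 0.0440 TPM in the negative set and 28.1 to 52.2 TPM in the positive set. The intermediate filament VIM, a mesenchymal marker, ranged from 1.42 to 73.2 TPM in the negative set and from 3047 to 4526 TPM in the positive set. The epithelial cadherin CDH1 ranged from 90.8 to 198 TPM and from 0.338 to 7.74 TPM in the same order. The epithelial keratins KRT8, KRT18 and KRT19 were at least 298 TPM in all 26 libraries, and EPCAM was 239 to 424 TPM in the negative set and 7.489 to 25.47 TPM in the positive set. The leukocyte marker PTPRC was at most 0.535 TPM and the fibroblast marker PDGFRB at most 3.47 TPM. The endothelial marker PECAM1 ranged from 0.321 to 6.07 TPM and the collagen gene COL1A1 from 2.06 to 38.5 TPM over both sets. In size, the sets of 12 and 14 clones equal the groups labelled BxPC3 and Panc1. The sets differ at once in SMAD4, VIM and CDH1 and may differ in line of origin, so these differences cannot be told apart. The division was also made from values of the same libraries. Values by set are therefore a description and no test was made between the sets.

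RAS proteins are small GTPases that pass signals from growth factor receptors to RAF kinases when bound to GTP. RAF kinases phosphorylate the MEK kinases, which phosphorylate the ERK kinases, and ERK acts on transcription factors and on its own inhibitors. Activating mutation of this pathway is the hallmark of pancreatic ductal adenocarcinoma. Its activity is set by GTP loading and phosphorylation, neither of which is seen in transcript levels.

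Promoter windows of HRAS, NRAS and MAP2K1 are shown because these 3 genes had the largest differences between the sets in the values that follow, 2 in one direction and 1 in the other. Each is the reference sequence (GRCh38.p14) from 250 bases before to 50 bases after the start annotated in RefSeq. It is written 5′ to 3′ on the strand of the gene. Gene positions given below came from GENCODE, and the HRAS window lies wholly inside the GENCODE gene. Capitals mark the GC box GGGCGG or its reverse complement CCGCCC, the letters that the Sp1 family of transcription factors is known to bind.
HRAS chr11:535527-535826 (-): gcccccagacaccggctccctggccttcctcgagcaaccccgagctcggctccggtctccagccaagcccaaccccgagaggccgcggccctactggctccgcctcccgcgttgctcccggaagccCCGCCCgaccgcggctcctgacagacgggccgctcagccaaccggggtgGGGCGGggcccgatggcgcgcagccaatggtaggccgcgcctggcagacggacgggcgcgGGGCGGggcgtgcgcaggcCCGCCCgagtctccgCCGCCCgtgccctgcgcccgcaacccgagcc
NRAS chr1:114716722-114717021 (-): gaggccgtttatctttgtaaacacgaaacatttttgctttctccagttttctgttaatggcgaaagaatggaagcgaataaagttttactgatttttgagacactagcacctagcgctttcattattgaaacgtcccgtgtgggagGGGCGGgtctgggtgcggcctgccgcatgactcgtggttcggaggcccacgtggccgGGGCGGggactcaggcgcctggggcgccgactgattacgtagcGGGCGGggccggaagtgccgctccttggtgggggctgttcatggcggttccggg
MAP2K1 chr15:66386662-66386961 (+): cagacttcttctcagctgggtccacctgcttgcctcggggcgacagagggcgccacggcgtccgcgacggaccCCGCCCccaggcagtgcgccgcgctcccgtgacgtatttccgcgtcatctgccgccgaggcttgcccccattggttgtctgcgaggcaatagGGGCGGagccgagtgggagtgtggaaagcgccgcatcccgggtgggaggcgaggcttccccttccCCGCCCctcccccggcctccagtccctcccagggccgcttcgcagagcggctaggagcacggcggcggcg
The HRAS window held 5 GC boxes and was 78.0% G and C, the NRAS window held 3 and was 57.3%, and the first MAP2K1 window, shown here, held 3 and was 72.0%. Over 35116 RefSeq promoter windows of the same length, 45.0% held a GC box on either strand, 5.14% held at least 5, and the median was 58.7% G and C. The core of ETS factors, which ERK is known to act on (CCGGAAG or its complement CTTCCGG), was found once in the HRAS window and once in the NRAS window, against 10.26% of all windows. All 7 genes had a window in the table, 9 windows in all. MAPK3 held 8 GC boxes, the first window of MAP2K2 held 2, and those of ARAF and BRAF held 0. The second windows of MAP2K1 and MAP2K2 also held 0. None of the 9 windows held the SMAD palindrome GTCTAGAC, the cyclic AMP response element TGACGTCA or a TATA box TATAAA on either strand, against 0.202%, 1.85% and 11.53% of all windows.

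HRAS and NRAS, the RAS genes measured here, both had lower levels in the SMAD4-negative clones. HRAS (ENSG00000174775, chr11:532242-537321, minus strand) was 43.6, 88.6 and 104 TPM (lowest, median and highest) in the 12 SMAD4-negative libraries and 98.9, 124 and 147 TPM in the 14 SMAD4-positive libraries. The ranges overlapped, with 1 negative library above the lowest positive one. The SMAD4-positive median was 1.397-fold the negative one, and the mean of log2(TPM + 1), negative minus positive, differed by -0.61 ± 0.13 (SE), against a pooled SD of 0.31 between the clones of a set. NRAS (ENSG00000213281, chr1:114704469-114716771, minus strand) was 20.99, 35.6 and 39.5 TPM in the negative libraries and 47.7, 55.4 and 69.0 TPM in the positive ones. Every SMAD4-positive clone was above every SMAD4-negative clone. The positive median was 1.56-fold the negative one and the log2 difference was -0.71 ± 0.08 (SE).

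NRAS was the only one of the 7 genes whose ranges did not overlap. Among 14763 genes with a mean of at least 1 TPM, the ranges were apart for 15.8% with the higher level in the positive set, for 14.5% with the higher level in the negative set, and for 30.3% in either direction. With 1 of 7, the RAS, RAF, MEK and ERK genes held no larger share of such genes than the table as a whole.

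ARAF and BRAF, which encode RAF kinases, differed little and in opposite directions. ARAF (ENSG00000078061, chrX:47561205-47571908, plus strand) was 33.6, 42.0 and 49.5 TPM in the negative libraries and 42.6, 49.4 and 54.8 TPM in the positive ones, a log2 difference of -0.25 ± 0.06 (SE). In ARAF, 5 negative libraries lay inside the positive range and 7 positive libraries inside the negative range. BRAF (ENSG00000157764, chr7:140719327-140924929, minus strand), the least abundant of the 7 genes, was 9.14, 11.9 and 14.305 TPM in the negative libraries and 6.61, 10.52 and 11.8 TPM in the positive ones. Its log2 difference was 0.22 ± 0.08 (SE), and 12 of the 14 positive libraries lay inside the negative range. The 2 lowest BRAF levels, 6.61 and 7.13 TPM, were both in SMAD4-positive libraries labelled BxPC3. BRAF overlaps NDUFB2, a respiratory chain gene on the opposite strand at 213 to 517 TPM. The libraries were strand-specific, but whether the quantification used strand is not given in the sources used here.

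MAP2K1 had the largest difference towards the SMAD4-negative clones, while its paralog MAP2K2 hardly differed. MAP2K1 (MEK1; ENSG00000169032, chr15:66386837-66491656, plus strand) was 51.2, 71.9 and 94.4 TPM in the negative libraries and 36.1, 45.0 and 64.5 TPM in the positive ones. The negative median was 1.598-fold the positive one, with a log2 difference of 0.66 ± 0.10 (SE). Only 3 libraries of each set lay inside the range of the other. MAP2K1 overlaps SNAPC5, an opposite-strand gene at 16.17 to 63.5 TPM, with the same limit on strand. MAP2K2 (MEK2; ENSG00000126934, chr19:4090321-4124122, minus strand) was 85.5, 98.4 and 111 TPM in the negative libraries and 90.8, 102 and 119 TPM in the positive ones. Its log2 difference of -0.07 ± 0.04 (SE) was smaller than the pooled SD of 0.11, and 13 of the 14 positive libraries lay inside the negative range.

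MAPK3, which encodes the kinase ERK1, was lower in most SMAD4-negative clones, with wide overlap. MAPK3 (ENSG00000102882, chr16:30114105-30123506, minus strand) was 14.7, 19.6 and 31.8 TPM in the negative libraries and 16.6, 31.0 and 41.6 TPM in the positive ones. The log2 difference was -0.54 ± 0.12 (SE), and 11 of the 12 negative libraries lay inside the positive range because 1 positive library held 16.6 TPM, while the next held 24.8 TPM.

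**Figure D1:**
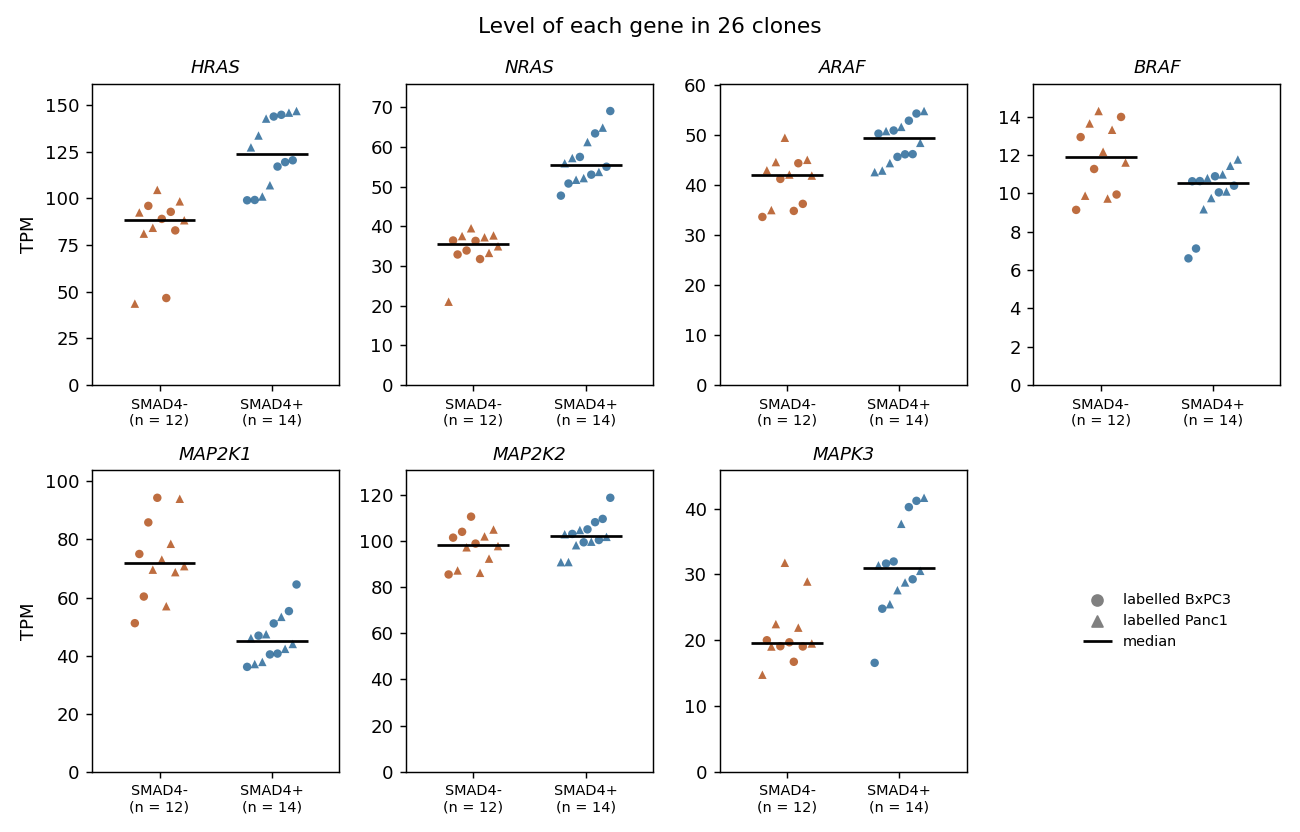
Level of each of the 7 genes in TPM (linear axes from 0) in 12 SMAD4-negative and 14 SMAD4-positive clones, with 1 point per clone, circles for libraries labelled BxPC3, triangles for libraries labelled Panc1 and a line at the median. NRAS has no overlap between the sets, MAP2K1 is higher in most negative clones, MAP2K2 lies at 85.5 to 119 TPM in both, and 2 negative clones have HRAS at 43.6 and 46.6 TPM.

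Set against the whole transcriptome, these differences were of ordinary size. The median absolute log2 difference between the sets was 0.63 over the 14763 genes and 0.54 over the 7. A larger absolute difference than that of NRAS was found in 45.7% of genes, than that of MAP2K1 in 48.6%, than that of HRAS in 51.7% and than that of MAPK3 in 55.6%. For ARAF, BRAF and MAP2K2 the shares were 77.8%, 80.5% and 93.4%. The median signed difference over all genes was -0.03, and between -0.03 and 0.0018 under 3 other scalings, so the scale of the sets moved these values little.

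The order of the 7 genes by median TPM changed between the sets above MAPK3 and BRAF, which were lowest in both. In the negative set it was MAP2K2, HRAS, MAP2K1, ARAF, NRAS, MAPK3 and BRAF, and in the positive set it was HRAS, MAP2K2, NRAS, ARAF, MAP2K1, MAPK3 and BRAF. Some neighbours in this order had separate ranges. These were MAP2K1 over ARAF and MAPK3 over BRAF in the negative set, and MAP2K2 over NRAS and MAPK3 over BRAF in the positive set. The other neighbours overlapped, although NRAS exceeded MAPK3 in 12 of 12 negative clones and ARAF in 14 of 14 positive clones. HRAS exceeded MAP2K2 in 11 of the 14 positive clones and MAP2K2 exceeded HRAS in 10 of the 12 negative ones.

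Ratios of paralogs within a library do not depend on the scale between libraries. HRAS made up 56.1%, 72.3% and 74.5% (lowest, median and highest) of the summed TPM of HRAS and NRAS in the negative clones and 58.9%, 69.2% and 73.4% in the positive clones. The log2 ratio differed by 0.12 ± 0.12 (SE), so the balance of these RAS genes did not differ by more than the spread between clones. HRAS was above NRAS in all 26 clones. ARAF made up 74.2%, 77.3% and 81.3% of ARAF and BRAF in the negative clones and 79.9%, 82.3% and 88.5% in the positive ones, a log2 ratio difference of -0.50 ± 0.10 (SE). Only 2 negative clones reached the positive range. MAP2K1 made up 37.3%, 41.7% and 52.2% of MAP2K1 and MAP2K2 in the negative clones and 25.39%, 31.0% and 38.0% in the positive ones, a log2 ratio difference of 0.74 ± 0.10 (SE). This was the widest shift of the 3 ratios, and MAP2K1 exceeded MAP2K2 in 1 negative clone and in 0 positive clones.

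**Figure D2:**
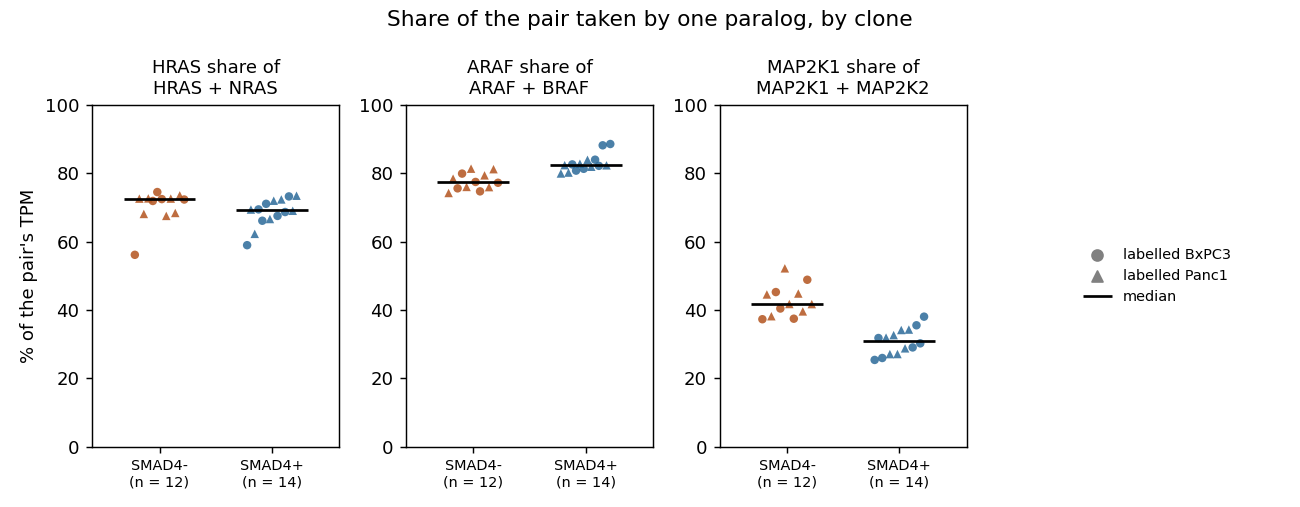
Share of each pair's summed TPM (percent, 0 to 100) taken by the paralog named first, with 1 point per clone and a line at the median of each SMAD4 set. The HRAS share is alike in both sets, the ARAF share is lower and the MAP2K1 share is higher in SMAD4-negative clones.

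Clones of 1 set differed in these genes by several times the SD of resampled counts. The SD of log2 level between clones ran from 0.10 for MAP2K2 in the positive set to 0.40 for HRAS in the negative set. The SD over 4 resampled estimates of the same library, which covers read sampling and assignment among transcripts, had medians of 0.02 to 0.05, and the spread between clones was 3.56 to 12.22 times larger. A repeat culture or a repeat library of a clone was not measured, so the share of this spread that belongs to the clone is unknown. MAP2K2 was among the steadiest genes of the table. In the negative set 98.6% of genes had a larger SD, and in the positive set 99.8% did, against a median SD of 0.30 and 0.29. With TMM-scaled counts in place of TPM, its SD in the negative set was 0.06 in place of 0.12. MAP2K2 ranged 1.29-fold and 1.31-fold between its lowest and highest clone in the negative and positive set, and MAPK3 2.15-fold and 2.52-fold.

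**Figure D3:**
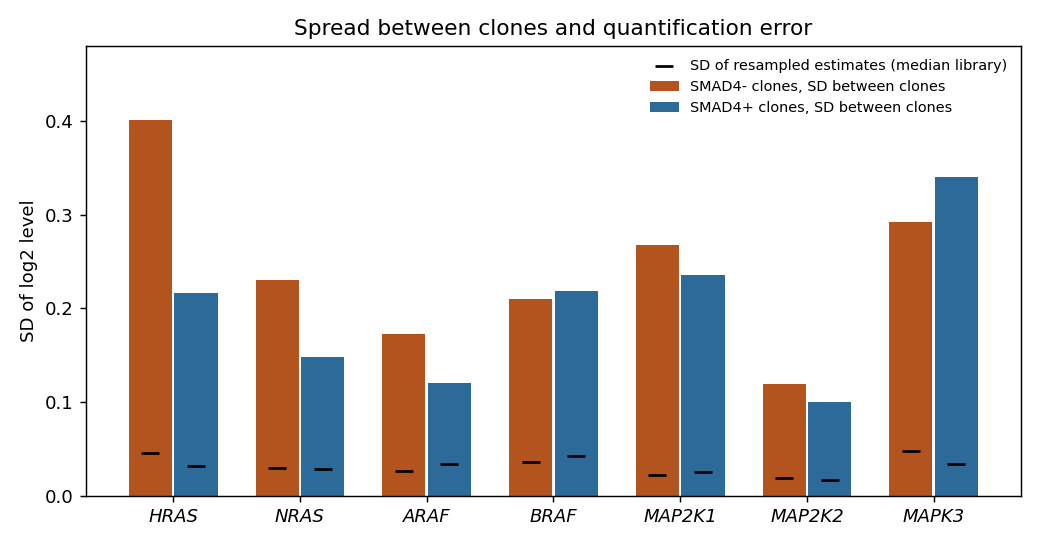
SD of log2(TPM + 1) between clones of each SMAD4 set (bars from 0), with a dash at the SD over resampled estimates of 1 library (median over the libraries of the set). MAP2K2 has the lowest bars at 0.12 and 0.10, HRAS in the negative set the highest at 0.40, and every bar is at least 3.56 times its dash.

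The SD of HRAS in the negative set rested on 2 clones. HRAS was 43.6 TPM in library 4 (labelled Panc1) and 46.6 TPM in library 16 (labelled BxPC3), while the other 10 negative clones had 81.0 to 104 TPM. Without both libraries the SD was 0.11 and the log2 difference between the sets was -0.44. NRAS was also lowest in library 4, at 20.99 TPM against 31.7 to 39.5 TPM in the other 10 clones, but was 36.4 TPM in library 16. Without both, its SD was 0.10 and its difference -0.66. MAP2K1 was 57.0 TPM in library 4 and 94.4 TPM in library 16, near the lowest and at the highest of the set.

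Genes beside HRAS at the end of the short arm of chromosome 11 were low in the same 2 clones. Of 30 other genes in the first 1 Mb of the chromosome, 27 were lower in library 16 than in all 10 other negative clones, with a median log2 difference of -1.10 from their median. In library 4 the count was 20 of 30, with a median of -0.65. Between 1 and 2 Mb, 5 of 6 genes were below all others in library 16 (median -0.85) and 1 of 6 in library 4 (median -0.0062). Between 3 and 5 Mb the count was 0 of 10 in both, and between 50 and 140 Mb it was 15 of 425 in library 16 and 29 of 425 in library 4. These counts left out some genes with a mean of at least 1 TPM over the 26 clones. Among those left out were LRRC56, LMNTD2, PHRF1, IRF7 and DRD4, all beside HRAS. RNH1, which encodes the inhibitor of ribonucleases, was 26.35 TPM in library 4 and 32.1 TPM in library 16, against 49.3 to 85.3 TPM in the others. PSMD13, a proteasome subunit, was 63.4 and 70.3 TPM against 114 to 135 TPM. IFITM1, an interferon-induced gene of the same stretch, was not low, at 606 and 525 TPM against 119 to 1172 TPM in the others. PSMD13 and IFITM1 were picked after their values were seen, and RNH1 because its level followed that of HRAS over the clones. They are examples and not separate support. DNA copy number was not measured, and why these genes were low in these clones was not tested.

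**Figure D4:**
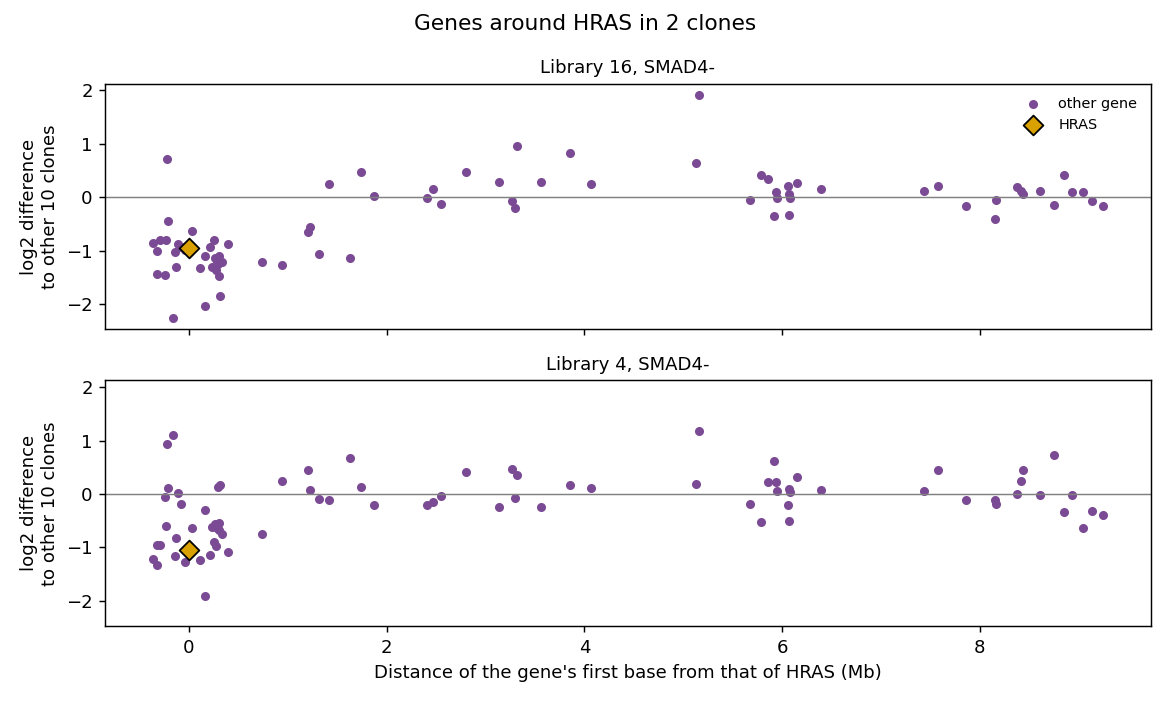
Difference of log2(TPM + 1) of each counted gene shown in library 16 (upper panel) and library 4 (lower panel) from the median of the other 10 SMAD4-negative clones, against the distance in Mb of the gene's first base from that of HRAS (diamond). In library 16 most points within about 1 Mb of HRAS lie near -1 and points beyond 2 Mb scatter about 0, and in library 4 the low points end sooner.

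For HRAS, BRAF and MAP2K1, most of the 3 genes that followed each closest from clone to clone were on its own chromosome. This did not hold for all 7 genes. Why genes of the same chromosome followed each other was not tested. Levels were centred within each SMAD4 set and correlated over the 26 clones with 11454 genes of at least 5 TPM. The genes named are the 3 highest for each of the 7 genes. As they were picked as the highest, no p is given, and clones, depth and scaling are shared by all pairs. Spearman's rho of the named pairs was 0.56 to 0.87. For HRAS they were AP2A2 (r = 0.87), RIC8A (r = 0.85) and RNH1 (r = 0.83), all on chromosome 11. Without libraries 4 and 16 these values were 0.52, 0.49 and 0.40. For BRAF they were GALNT11, KMT2E and GSTK1 (r = 0.85 each), all on chromosome 7, and without the same libraries they were 0.85, 0.86 and 0.87. Those libraries were not the extreme ones for BRAF. Without the 2 clones whose BRAF level was farthest from the mean of their set, the values were 0.78, 0.78 and 0.71. For MAP2K1 they were FRMD5 (r = 0.77), GOT2 (r = 0.77) and CSNK1G1 (r = 0.76), of which FRMD5 and CSNK1G1 are on chromosome 15 with MAP2K1. The nearest genes to NRAS were GNA13 (r = 0.90), a G protein subunit, CAPZA1 (r = 0.87), an actin capping subunit, and DCAF7 (r = 0.85). CAPZA1 is on chromosome 1 like NRAS, while GNA13 and DCAF7 are on chromosome 17. Without libraries 4 and 16 these NRAS values were 0.76, 0.77 and 0.67. ARAF was nearest to BECN1 (r = 0.69), an autophagy gene, NFATC3 (r = 0.68) and ABHD17A (r = 0.68). MAP2K2 was nearest to ZFTRAF1 (r = 0.77), CAMK2G (r = 0.72) and DIS3L2 (r = 0.72). MAPK3 was nearest to FKBP8 (r = 0.89), ZBTB45 (r = 0.84) and LMCD1 (r = 0.83), none of them on its chromosome 16.

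Among the 100 genes most like each one, 41 of those for BRAF were on chromosome 7, which holds 4.55% of the genes compared. For MAP2K1 31 were on chromosome 15 (3.17%), for HRAS 28 on chromosome 11 (5.65%) and for ARAF 15 on the X chromosome (2.99%). For MAPK3 the count was 9 (4.64%), for NRAS 8 (9.75%) and for MAP2K2 7 (6.70%). Without libraries 4 and 16 the counts were 45 for BRAF, 21 for MAP2K1, 42 for HRAS, 23 for ARAF, 8 for MAPK3, 3 for NRAS and 6 for MAP2K2.

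The level of each gene was compared, within each set, with the median centred level of its 20 nearest genes, 14 relations in all, by permutation of the clones with Benjamini-Hochberg adjustment. All genes of a library share its depth and scaling, and no set of genes from elsewhere in the genome was compared. These p-values therefore do not show that a relation is particular to the nearest genes. HRAS followed its neighbours in the 12 negative clones (r = 0.82, permutation p = 0.00028, adjusted p = 0.0039, and rho = 0.89, permutation p = 0.00035, adjusted p = 0.0049). This relation was 0.71 without the 2 clones farthest on the neighbours' axis and 0.79 without libraries 4 and 16. BRAF followed its neighbours in the 14 positive clones by r (0.87, permutation p = 0.0010, adjusted p = 0.0073) but not by rank after adjustment (rho = 0.66, permutation p = 0.013, adjusted p = 0.062), and r was 0.40 without the 2 farthest clones, so that relation rested on those. In the negative clones the BRAF relation had r = 0.71 (permutation p = 0.0059, adjusted p = 0.021) and rho = 0.54 (permutation p = 0.075, adjusted p = 0.17), and r was 0.47 without the 2 farthest. MAP2K1 in the negative clones had r = 0.79 (permutation p = 0.0025, adjusted p = 0.012) and rho = 0.66 (permutation p = 0.022, adjusted p = 0.078), with 0.53 without the 2 farthest. MAP2K2 in the negative clones had r = 0.66 (permutation p = 0.016, adjusted p = 0.044) and rho = 0.73 (permutation p = 0.0099, adjusted p = 0.062), with 0.56 without the 2 farthest. The other 9 relations did not pass adjustment by either measure. One of them, ARAF in the negative clones, had r = 0.30 (permutation p = 0.35, adjusted p = 0.41) and rho = 0.18 (permutation p = 0.57, adjusted p = 0.57) with all 12 clones and r = 0.72 without libraries 4 and 16.

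Between the sets, NRAS stood against its surroundings. Of its 20 nearest genes only 2 had the sign of the NRAS difference, and their median log2 difference was 0.70 against -0.71 for NRAS. For HRAS 15 of 20 neighbours shared its sign (median -0.98), for ARAF 15 (median -0.63) and for MAPK3 15 (median -0.55). For BRAF 8 shared it (median -0.14), for MAP2K1 10 (median -0.01) and for MAP2K2 9 (median 0.18). With the 5 nearest genes on each side the median was -0.25 for MAPK3 and -0.19 for MAP2K1.

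Transcript use could change a level measured per length. The mean length of the transcripts counted for a gene had overlapping ranges between the sets for all 7 genes. It was shifted most for ARAF, at 1521, 1847 and 2161 bases (lowest, median and highest) in the negative clones and 1995, 2135 and 2233 bases in the positive ones. The deposited estimated counts were made from TPM and 1 mean length per gene, so they carry the same length correction, and whether transcript use changed these differences was not tested. Processed copies of BRAF, MAP2K1 and ARAF elsewhere in the genome (BRAFP1, MAP2K1P1 and ARAFP1) were listed at no more than 0.0934 TPM, so few reads were assigned there.

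The genes that act around RAS, RAF, MEK and ERK had a median absolute difference of 0.58, close to the 0.54 of the 7 genes. Of 56 genes in 6 lists, 55 were measured at a mean of at least 1 TPM. The ranges were apart for 15 of them, 9 with the higher level in the negative clones and 6 with the higher level in the positive clones. This share is near the 30.3% of all genes, beside which the counts of each list stand. Among 10 upstream activators, the receptors ERBB3 (9.14 to 38.5 against 0.929 to 8.29 TPM, log2 difference 2.73) and ERBB2 (56.6 to 84.4 against 10.6 to 40.6 TPM, 1.56) and the adaptor GAB1 (3.78 to 10.19 against 0.674 to 2.01 TPM, 1.96) were higher in the negative clones. The phosphatase PTPN11 (SHP2), which promotes RAS activation, was lower (25.8 to 42.9 against 76.4 to 134 TPM, -1.44). EGFR, GRB2, SHC1, MET and the exchange factors SOS1 and SOS2 overlapped, with differences from -0.36 for SOS2 to 0.88 for MET.

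Of 9 relatives of RAS, RAP1B, a GTPase of cell adhesion, was 81.9 to 126 TPM in the negative clones and 547 to 1017 TPM in the positive ones (-2.75). RHEB, the activator of mTOR, was 89.0 to 116 against 187 to 330 TPM (-1.18). The other 7, MRAS, RRAS, RRAS2, RALA, RALB, RAP1A and RIT1, overlapped, with absolute differences of at most 0.49. Of the GTPase-activating proteins, which switch RAS off, 7 of 8 were measured and DAB2IP was apart (8.65 to 24.9 against 0.158 to 7.16 TPM, 2.39), while NF1 differed by 0.04.

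Of 12 scaffolds, RAF regulators and RAS-processing enzymes, 4 were apart, against 30.3% of all genes. The scaffold CNKSR1 (20.37 to 39.5 against 2.72 to 9.85 TPM, 2.02) and FNTA (51.3 to 72.6 against 24.43 to 30.9 TPM, 1.08), the alpha subunit of the enzyme that farnesylates RAS, were higher in the negative clones. The RAF scaffold KSR1 (2.32 to 8.98 against 13.09 to 39.4 TPM, -1.89) and the RAS inhibitor SPRED2 (16.6 to 28.8 against 29.6 to 60.6 TPM, -0.77) were lower. FNTB, the beta subunit of the same enzyme, overlapped (0.24). Of 9 kinases of parallel MAPK pathways only MAP2K4, which activates JNK, was apart (3.19 to 8.36 against 10.6 to 15.99 TPM, -1.18).

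DUSP4, DUSP6 and DUSP7, 3 of the 5 phosphatases of ERK measured, had the largest differences of the pathway lists. DUSP4 was 42.7, 73.1 and 111 TPM (lowest, median and highest) in the negative clones and at most 0.140 TPM in the positive ones, a log2 difference of 6.06. DUSP6, the cytoplasmic ERK phosphatase, was 45.6 to 84.1 against 3.15 to 11.8 TPM (3.45). DUSP7 was 38.2 to 62.5 against 4.06 to 7.49 TPM (2.95). The other 5 of these 8 genes overlapped, with DUSP5 (1.73) and SPRY2 (0.96) higher on average in the negative clones and DUSP9 (-1.10), SPRY1 (-1.06) and SPRY4 (-0.79) lower. The list had a median absolute difference of 1.42, against 0.54 for the 7 kinases and GTPases and 0.63 for all genes. DUSP4, DUSP6 and the SPRY genes are known as transcripts that ERK activity induces. ERK activity was not measured, and its part in these differences was not tested. In bulk RNA, fewer cells with a transcript and less of it per cell cannot be told apart.

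**Figure D5:**
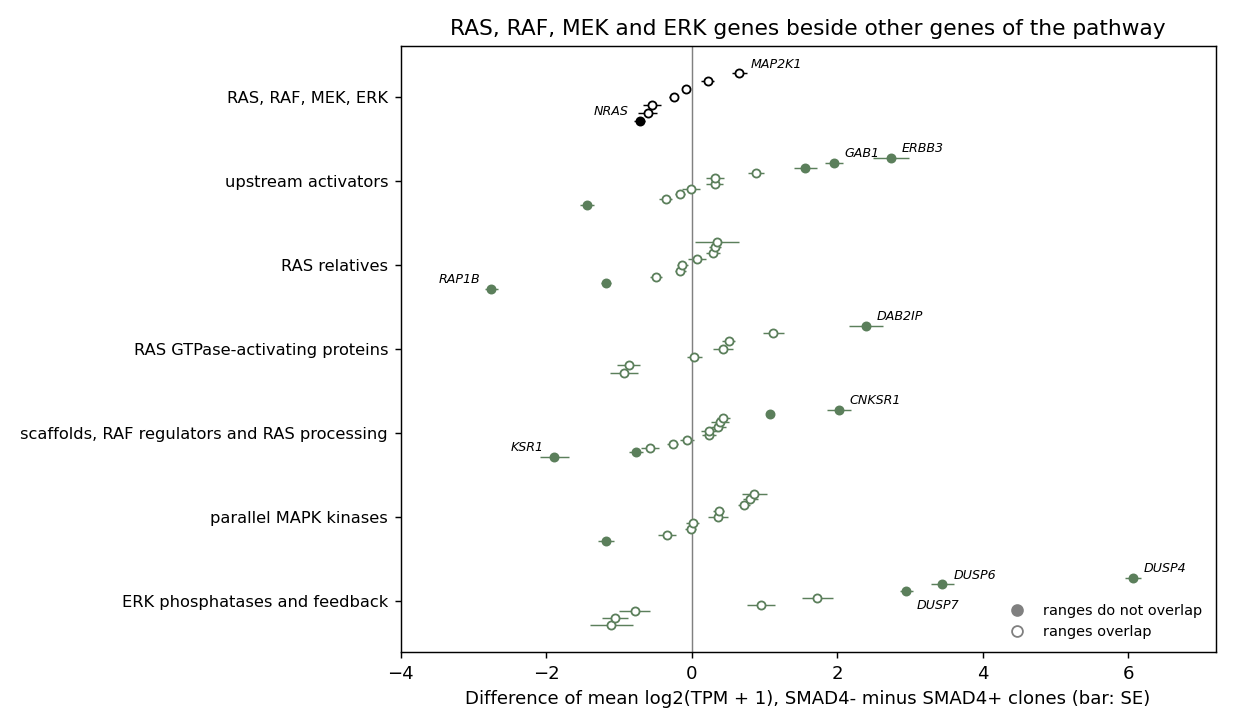
Difference of mean log2(TPM + 1), SMAD4-negative minus SMAD4-positive clones, with bars of 1 SE, for the 7 genes (black) and 55 genes of 6 lists (green), filled where the ranges of the sets do not overlap. The 7 genes lie between -0.71 and 0.66, and the ERK phosphatases DUSP4, DUSP6 and DUSP7 lie at 6.06, 3.45 and 2.95.

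Between the labels, which are the groups the submitters gave, none of the 7 genes differed beyond the spread between libraries. Because SMAD4 goes against the label in 14 of the 26 libraries, the labels may not name the line of origin, and this comparison is one of labels and not of the lines. With edgeR's quasi-likelihood test on the estimated counts of 16008 genes, 0.0% were called (adjusted p under 0.05 with a fold change over 1 on the log2 scale), which is 0 genes. At an unadjusted p under 0.05 there were 367, and the lowest adjusted p was 0.68. DESeq2 called 2 genes, neither of them among the 7, and limma called 0. The log2 fold change of Panc1-labelled over BxPC3-labelled libraries was 0.05 ± 0.17 (SE) for HRAS, -0.04 ± 0.16 for NRAS, 0.04 ± 0.08 for ARAF, 0.16 ± 0.09 for BRAF, 0.04 ± 0.16 for MAP2K1, -0.08 ± 0.05 for MAP2K2 and 0.08 ± 0.17 for MAPK3. By edgeR the adjusted p was 1.00 for each. In TPM, NRAS was 31.7 to 69.0 in the libraries labelled BxPC3 (median 49.2) and 20.99 to 64.8 in those labelled Panc1 (median 45.6). Within the libraries labelled BxPC3 alone, NRAS differed by -0.70 between the SMAD4 sets and MAP2K1 by 0.60. Within those labelled Panc1 the values were -0.72 and 0.72.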

How the data were processed

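Messenger RNA of 26 SCDCLs was sequenced after poly-A enrichment as strand-specific paired-end libraries. Per the labels and the submitters' processing notes, the authors quantified transcripts with kallisto 0.46.1 on GRCh38 (Ensembl 103 in the methods). The authors deposited, for 41078 genes, TPM, estimated counts (made from TPM and 1 mean length per gene and scaled to each library's total) and estimated counts of 30 resamples per library, of which 4 were used. TPM depends on the rest of the library and on the transcript length assigned. Totals were 27035724 to 34945608 estimated counts (SMAD4-negative 27144920 to 34945608, SMAD4-positive 27035724 to 32601392), and a member had at least 506 in every library. Symbols and positions came from GENCODE 44 (36315 genes matched). No 2 libraries agreed within counting noise.

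The members and lists were chosen with earlier results of these data known. Described values used log2(TPM + 1) and genes with a mean of at least 1 TPM (5 TPM for similar genes). The counts along chromosome 11 used fewer genes than the limit of 1 TPM would give. Named genes are the members, the 3 genes most like each, SMAD4, VIM, CDH1, cell type markers and the pathway lists. The label comparison used rounded estimated counts in edgeR 4.0.16 (TMM, filterByExpr, quasi-likelihood test, Benjamini-Hochberg), with DESeq2 1.42.0 and limma 3.58.1 as alternatives, in R 4.3.3. Relations with neighbours, a comparison decided after the data were seen, used 100000 two-sided permutations (Python 3.11.15, numpy 2.4.6, pandas 2.3.3, scipy 1.17.1). Scripts were tested on simulated data. RefSeq promoter windows (GRCh38.p14) were searched for exact letters. Nothing says that clones were grown in separate experiments, so p-values measure only the spread between these libraries.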

Additional observations from a re-analysis of the deposited data

Results flagged for a closer look

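In 28 groups of libraries, each being 1 of the 7 genes in 1 label and 1 SMAD4 set, 3 values stood far from the rest by Dixon's criterion, which marks about 1 in 20 such groups by chance. HRAS was 46.6 TPM in library 16, against 82.8 to 95.9 TPM in the other SMAD4-negative libraries labelled BxPC3. HRAS was 43.6 TPM in library 4, against 81.0 to 104 TPM in the other SMAD4-negative libraries labelled Panc1. NRAS was 20.99 TPM in library 4, against 33.3 to 39.5 TPM in the same libraries. The gap to the nearest library was 0.73, 0.62 and 0.66 of the whole range.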

How the results depend on the processing

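Over 8 alternatives (2 scalings of library-scaled counts, 1 of TPM, 2 pseudocounts, each label alone, and without libraries 4 and 16, the last chosen after seeing the data), the log2 difference between the SMAD4 sets stayed between -0.63 and -0.44 for HRAS, -0.73 and -0.65 for NRAS, -0.37 and -0.15 for ARAF, 0.16 and 0.27 for BRAF, 0.60 and 0.72 for MAP2K1, -0.09 and -0.04 for MAP2K2, and -0.63 and -0.47 for MAPK3. Leaving out each library in turn, the log2 ratio difference was 0.07 (without library 19) to 0.20 (without library 16) for HRAS to NRAS, -0.52 to -0.44 for ARAF to BRAF and 0.69 to 0.78 for MAP2K1 to MAP2K2. The SMAD4-positive libraries lowest in BRAF, 17 and 22 (7.13 and 6.61 TPM), were not left out together. The ranges for BRAF and for ARAF to BRAF do not cover that case. Without a filter on low values, 17.26% of genes had ranges that did not overlap, where genes at or near 0 are counted too. DESeq2 called 2 genes between the labels, where edgeR called 0. With the SMAD4 set as a covariate, the label differences of NRAS and MAP2K1 changed sign, to 0.022 and -0.036, both within their SE. No paired analysis was possible because the labels of BxPC3 and Panc1 libraries share no replicate numbers. With 1 library per clone, differences within a set have no repeat.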
